A study of Mus musculus with 6 samples.

Results

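Voltage-gated and potassium channel subunits were examined in 6 olfactory sensory neurons, the odour-detecting nerve cells of the nasal epithelium. The members were all genes of the deposited count table whose symbols name a potassium channel subunit (Kcn followed by letters and a number), a voltage-gated sodium channel subunit (Scn, types a and b), a voltage-gated calcium channel subunit (Cacna, Cacnb and Cacng) or a hyperpolarization-activated Hcn channel. This gave 136 of 55341 genes, all annotated as protein coding, and the noncoding RNA Kcnq1ot1 was not a member. The neurons came from wild-type C57BL/6 mice aged 6 weeks, were recorded from physiologically and then frozen one by one. Each gave 1 CEL-Seq2 library, a method that counts RNA mainly at the 3' ends of transcripts, and they are called cells 1 to 6 here. All belong to 1 group and no treatment is named. The labels do not say which animal a cell came from or how it responded, so no test between cells is possible and each value carries its counting error alone.

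These channels turn the odour-evoked current of the cilia into action potentials and carry those to the axon terminal. Sodium channel alpha subunits form the pore that starts the action potential, and beta subunits adjust its gating. Voltage-gated potassium (Kv) channels repolarize the membrane, calcium channels admit the calcium that drives transmitter release, and Hcn channels carry a depolarizing current at negative voltages.

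Library totals ran from 8613 counts in cell 1 to 122546 in cell 3, so 1 count was worth between 8.16 and 116 CPM (the count divided by the library total and scaled to a total of 1000000). Mature neuron markers were present in all cells, with a summed level of 13541 to 26704 CPM over 7 genes. Cell 6 had no count of Cnga2 or Rtp1 and 1 of the adenylyl cyclase Adcy3 (85.3 CPM, against 82.1 CPM in cell 4). Its levels of Omp, Gng13, Gnal and Stoml3 lay within the range of the other cells. Defining markers of basal and microvillar cells were at 0 in every cell. Gland markers ranged from 0 to 19781 CPM, highest in cell 2, and red blood cell markers from 171 to 12610 CPM, highest in cell 4. Their part in the results was not tested. Whether reads of the same molecule were collapsed is not given, and all intervals are 95% intervals of counting error, too narrow if counts are amplified copies.

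Few genes held most of the channel counts. A count was found for 61 of 136 members (44.9%) in at least 1 cell, against 49.8% of protein-coding genes and 29.8% of all genes. Counts in all 6 cells were found for 8 members (5.88%), against 2.89% of protein-coding and 1.5% of all genes. Among them were Kcnc4, Kcnh3 and Kcna2 of the Kv channels, Scn9a and Scn4b of the sodium channel subunits, and Cacna1h and Cacnb3 of the calcium channels. The members had 1387 counts in all, of which 10 genes held 55.7%, while 75 members had none and 23 had between 1 and 4.

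The number of members found followed depth, at 17, 33, 53, 34, 31 and 16 in cells 1 to 6. At an equal depth of 8613 counts, 17.0, 17.2, 24.0, 17.8, 22.2 and 14.1 members were due. The gap between cell 3 and the others was thus smaller at equal depth, though cell 3 still had the most. The summed level of all members was 4760 CPM (95% Poisson interval 3416 to 6458), 3277 (2701 to 3940), 6373 (5934 to 6836), 4023 (3535 to 4559), 5949 (4984 to 7046) and 6226 (4880 to 7828) in cells 1 to 6. By library totals, cells 3, 5 and 6 were high and cells 2 and 4 low, with intervals of cells 2 and 4 below that of cell 3. Cell 3 was highest under 3 of 5 scalings and cell 6 under the other two. Cell 2 was lowest except with edgeR's TMM factors, where cell 1 was lowest (3180 CPM). Those factors also put cell 6 (3957 CPM) under cells 2 (4241 CPM) and 4 (4983 CPM).

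**Figure D1:**
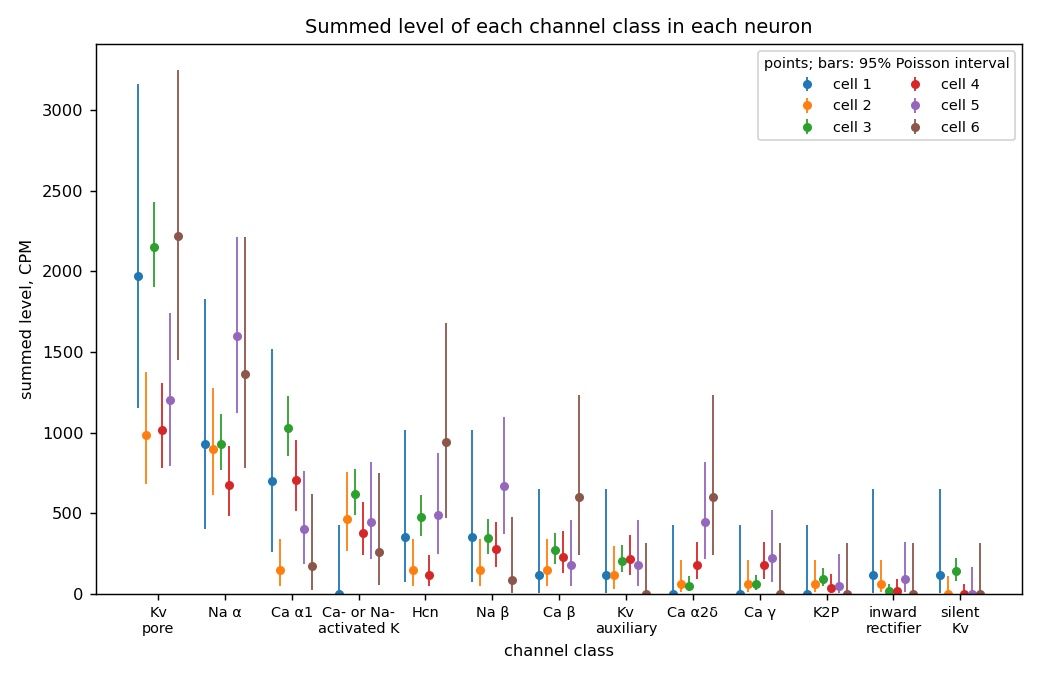
Summed level in CPM (vertical axis) of 13 channel classes (horizontal axis, ordered by median) in each of 6 neurons, with points for cells and bars for 95% Poisson intervals. Kv pore subunits and sodium channel alpha subunits lead, with medians of 1586 and 930 CPM, and inward rectifier, K2P and silent Kv subunits lie near 0.

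By class, Kv pore subunits held the highest summed level. Their median was 1586 CPM, their range 986 to 2217 CPM, and 17 of 30 genes were found. Sodium channel alpha subunits followed with 930 CPM (673 to 1598, with 6 of 10 genes found) and calcium channel alpha1 subunits with 548 CPM (145 to 1028, with 5 of 10 genes found). Hcn channels and the calcium- or sodium-activated potassium channels both had 411 CPM. Classes that set the resting potential in many cells were sparse: 3 of 15 inward rectifier genes (Kcnj) and 4 of 14 K2P leak channel genes (Kcnk) were found, with 8 and 16 counts over all cells. Of protein-coding genes, 49.8% had a count in at least 1 cell. Over all members, the median exon length was 3834 bases without a count and 5995 with one, and its part was not tested.

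Kcnc4, which encodes the fast Kv3.4 potassium channel, led all members both in mean CPM and in mean CPM per kb of exon. It had 9, 9, 110, 27, 5 and 14 counts in cells 1 to 6, or 1045, 261, 898, 443, 222 and 1194 CPM. Cells 1, 3 and 6 were high and cells 2 and 5 low, and the interval of cell 3, 738 to 1082 CPM, lay above those of cells 2, 4 and 5, whose upper bounds were 496, 645 and 518 CPM. The intervals of cells 1, 3 and 6 overlap, and with TMM factors cell 3 rather than cell 6 was highest. Kcnc4 is a gene of the minus strand of chromosome 3 (107438303 to 107459552, GRCm38). It held 174 of 179 Kcnc counts (97.2%, Clopper-Pearson interval 93.6% to 99.1%), and at least 90.0% in each cell.

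The upstream sequences of 2 members are shown because the genes hold the most counts of the sodium alpha and Hcn families and differ in base composition. Each is 250 bases before a RefSeq start on GRCm38.p6 and overlaps no GENCODE exon of its gene, written 5' to 3' on the gene's strand, with matches to the GC box GGGCGG on either strand in capitals. The regions are chr2:66634963-66635212 (minus strand) for Scn9a and chr10:79716384-79716633 (plus strand) for Hcn2.
Scn9a: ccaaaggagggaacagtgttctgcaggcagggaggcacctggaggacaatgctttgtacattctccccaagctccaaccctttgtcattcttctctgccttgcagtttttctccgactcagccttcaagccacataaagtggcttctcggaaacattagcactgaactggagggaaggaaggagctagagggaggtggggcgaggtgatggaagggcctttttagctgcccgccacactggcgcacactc
Hcn2: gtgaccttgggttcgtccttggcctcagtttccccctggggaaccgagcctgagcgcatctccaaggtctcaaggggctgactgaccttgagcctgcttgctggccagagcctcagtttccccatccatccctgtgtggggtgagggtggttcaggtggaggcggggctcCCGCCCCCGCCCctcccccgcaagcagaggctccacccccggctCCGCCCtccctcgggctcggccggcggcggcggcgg
Scn9a has no GC box and 5 CG pairs, and Hcn2 has 3 boxes and 16 pairs. RefSeq promoters were matched for 99 members, and 49 of their 135 windows overlap an exon of their own gene in GENCODE, so they are not upstream of every annotated start. Among the 86 other windows the median was 12.5 CG pairs in 16 promoters of members with at least 10 counts, 7 in 18 promoters of those with 1 to 9 counts, and 6 in 52 promoters of those without a count. A GC box was present in 6, 6 and 22 of these windows in the same order. Over the 22194 RefSeq windows of all genes that overlap no exon of their gene, 26.9% hold the box and the median is 4 CG pairs. The homeobox core TAATTA, searched on both strands, had no match in the members' 135 windows and matched 4.84% of all 32851, which says only that these letters are not in these windows.

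**Figure D2:**
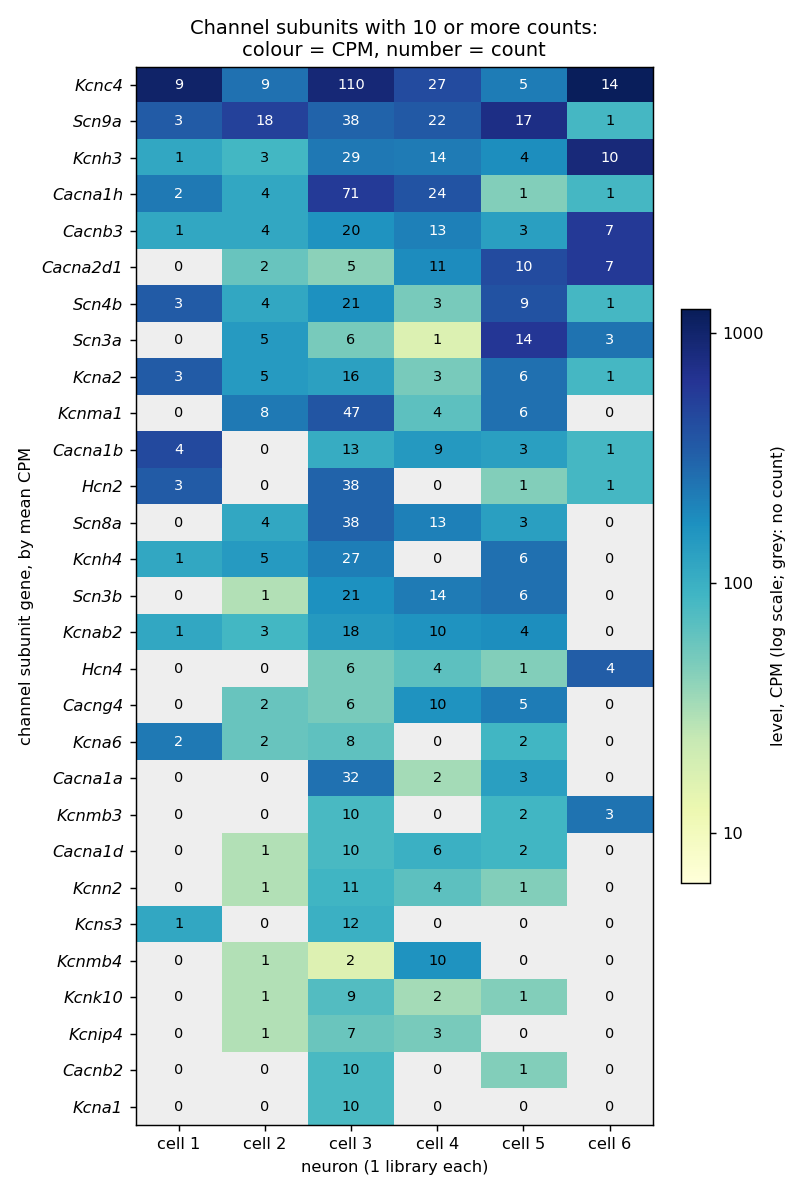
Counts (numbers) and level in CPM (colour, log scale, grey for no count) of 29 channel subunits with at least 10 counts, by gene (rows, ordered by mean CPM) and neuron (columns). Kcnc4 has counts in every cell, while many genes lower in the list have most of their counts in cell 3, the deepest library; grey means up to 348 CPM in cell 1 but 24.5 CPM in cell 3 at 3 counts.

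In the Kcnh family, which encodes ether-a-go-go-type channels, Kcnh3 and Kcnh4 led and took different shares in different cells. Kcnh3 had 1, 3, 29, 14, 4 and 10 counts (116, 87.0, 237, 230, 178 and 853 CPM). It shares exon sequence with Mcrs1 on the opposite strand, which had 1 count in cell 3, 2 in cell 4 and none elsewhere. Kcnh4 had 1, 5, 27, 0, 6 and 0 counts (116, 145, 220, 0, 266 and 0 CPM). Kcnh3 was highest in cell 6, at 3.60 times cell 3 (interval 1.57 to 7.61) by totals but 1.58 times (0.686 to 3.33) with TMM factors, and Kcnh4 was absent from the counts of cells 4 and 6. The share of Kcnh3 among Kcnh counts was 93.3% (68.1% to 99.8%) for cell 4, with 14 of 15, against 43.9% (31.7% to 56.7%) for cell 3, with 29 of 66, and the intervals do not overlap. The level of Kcnh4 was at least 4.47-fold higher in cell 3 than in cell 4, taking 3 counts as the floor in cell 4.

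Of the Shaker-type Kcna genes, Kcna2 was found in each cell and led with 34 of 58 counts. It had 3, 5, 16, 3, 6 and 1 counts (348, 145, 131, 49.3, 266 and 85.3 CPM). The highest level per total was in cell 1, on 3 counts, and the lowest in cell 4. Cell 5 was 5.41 times cell 4 (interval 1.15 to 33.4), or 4.42 times with TMM factors (0.944 to 27.3). Kcna6 had 14 counts in 4 cells, and Kcna1 had 10 counts, all in cell 3. Kcna3, Kcna4, Kcna5, Kcna7 and Kcna10 had none.

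Some families were not detected. The 3 Kcnd genes, which encode the Kv4 channels of A-type current in many neurons, had no count in any cell, nor had the 4 Kcne genes or the sodium-activated Kcnt1 and Kcnt2. Over the pooled 260789 counts, 3 counts would be 11.5 CPM, and in cell 3 alone 24.5 CPM. Of the Kv4 partners, Kcnip4 had 11 counts in cells 2, 3 and 4 (29.0, 57.1 and 49.3 CPM), Dpp6 had 1 and Dpp10 none. The M-current family Kcnq had 6 counts in all, 5 of them in cell 3, with 4 of 5 genes found. Among the silent Kv subunits, which assemble only with other Kv channels, Kcns3 had 12 counts in cell 3, 1 in cell 1 and none elsewhere. Kcnab2, a cytoplasmic beta subunit of Kcna channels, was found in cells 1 to 5 at 87.0 to 178 CPM.

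The mixture of sodium channel alpha subunits differed between neurons. Scn9a, which encodes Nav1.7, had 99 of 246 alpha counts pooled over cells (40.2%, 34.1% to 46.7%), Scn8a (Nav1.6) 58 and Scn3a (Nav1.3) 29. By library totals, the sum of the alpha subunits was lowest at 673 CPM (483 to 913) for cell 4 and highest at 1598 CPM (1119 to 2213) for cell 5.

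Scn9a had 3, 18, 38, 22, 17 and 1 counts in cells 1 to 6 (348, 522, 310, 361, 755 and 85.3 CPM). It led the alpha subunits in cells 2, 4 and 5, with 58.1% (39.1% to 75.5%), 53.7% (37.4% to 69.3%) and 47.2% (30.4% to 64.5%) of their counts, and was level with Scn8a in cell 3 at 38 counts each. The share in cell 6 was 6.25% (0.158% to 30.2%), below the intervals of cells 2, 4 and 5. Cell 6 was also the cell without Cnga2 counts and with few genes at equal depth (2468, against 3058 to 4015 in the other cells). Scn9a lies on the minus strand of chromosome 2 (66480080 to 66634962).

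Scn3a, known from developing neurons, had 0, 5, 6, 1, 14 and 3 counts (0, 145, 49.0, 16.4, 622 and 256 CPM). Cell 5 was highest, and Scn3a held 38.9% (23.1% to 56.5%) of its alpha counts against 5.26% (1.96% to 11.1%) in cell 3 and 2.44% (0.0617% to 12.9%) in cell 4. The summed immature neuron markers were 697, 1537, 996, 3038, 2087 and 2132 CPM for cells 1 to 6, and their part in the level of Scn3a was not tested. Scn8a had 0, 4, 38, 13, 3 and 0 counts (0, 116, 310, 213, 133 and 0 CPM). At its depth, the count of 0 for cell 6 leaves room for 256 CPM (3 counts), so it does not exclude a level like that of cell 4.

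**Figure D3:**
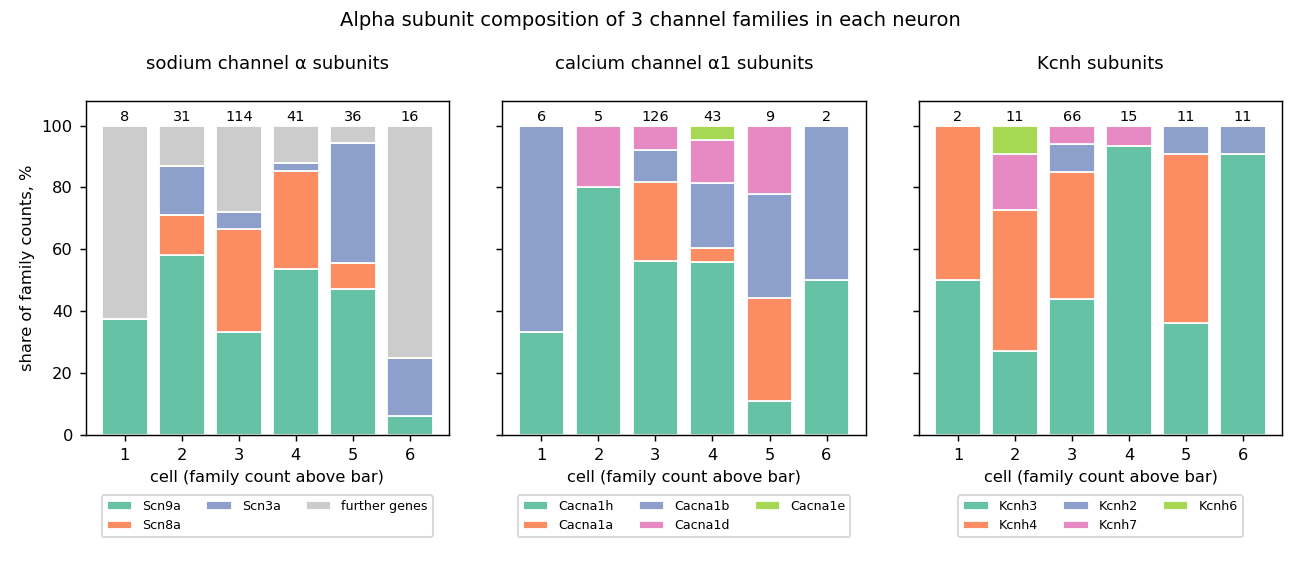
Share of family counts in percent (vertical axis) taken by sodium channel alpha, calcium channel alpha1 and Kcnh genes in cells 1 to 6 (horizontal axis), with the family count above each bar and further sodium channel genes pooled in grey. Scn9a holds 58.1% in cell 2 and 6.25% in cell 6, and bars with few counts, such as 2 for calcium channels in cell 6, carry little information.

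Of the beta subunits, Scn3b and Scn4b had 42 and 41 counts. Scn4b had 3, 4, 21, 3, 9 and 1 counts (348, 116, 171, 49.3, 400 and 85.3 CPM), and Scn3b had 0, 1, 21, 14, 6 and 0 (0, 29.0, 171, 230, 266 and 0 CPM). Both were counted in cells 2 to 5, and cells 1 and 6 had counts of Scn4b alone. The intervals of the 0 counts of Scn3b reach 428 CPM in cell 1 and 315 CPM in cell 6. Both bounds lie above the level of Scn3b in every other cell, so these counts do not show that it was missing. In cell 4 Scn3b outnumbered Scn4b by 14 to 3 counts. Among further sodium channel partners, Fgf12, an intracellular factor that binds the channel's tail, was found in all cells at 116 to 710 CPM, whereas Fgf13 and Fgf14 had no count. Ank3, the ankyrin that anchors sodium channels at the axon initial segment, was found in all cells at 171 to 844 CPM.

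Among calcium channels, the T-type subunit Cacna1h led in pooled counts, with 103 of 191 alpha1 counts (53.9%, 46.6% to 61.1%). Most alpha1 counts came from cells 3 and 4, and this interval leaves out the spread between cells. By cell, Cacna1h led in cells 2, 3 and 4, but not in cell 1 (2 of 6 counts) or cell 5 (1 of 9). In cell 6, Cacna1h and Cacna1b had 1 count each. Cacna1h had 2, 4, 71, 24, 1 and 1 counts (232, 116, 579, 394, 44.4 and 85.3 CPM). Cells 3 and 4 were high, with intervals of 453 to 731 and 252 to 586 CPM, and cell 5 was low (1.12 to 247 CPM). The other T-type genes, Cacna1g and Cacna1i, had no count. Cacna1h lies on the minus strand of chromosome 17 (25374285 to 25433783) and shares exon sequence with Tpsg1 on the opposite strand, which had no count in any cell.

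The calcium channels known from presynaptic terminals had fewer pooled counts than Cacna1h and were also uneven. By the median over cells they were not lower. The summed P/Q-, N- and R-type genes had 240 CPM, and the T-type genes 174 CPM. Cacna1a, the P/Q-type pore, had 0, 0, 32, 2, 3 and 0 counts (0, 0, 261, 32.8, 133 and 0 CPM). Cacna1b, the N-type pore, had 4, 0, 13, 9, 3 and 1 counts (464, 0, 106, 148, 133 and 85.3 CPM). Cell 3 thus had more P/Q-type than N-type counts and cell 4 the reverse. Cell 2, with 34478 counts, had none of either, which allows up to 87.0 CPM of each at 3 counts. The L-type list had Cacna1d alone, with 19 counts in cells 2 to 5, and Cacna1c, Cacna1f and Cacna1s had none.

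Of the accessory calcium channel subunits, Cacnb3 and Cacna2d1 were the main ones of their classes. Cacnb3, a cytoplasmic beta subunit, had 1, 4, 20, 13, 3 and 7 counts (116, 116, 163, 213, 133 and 597 CPM) and 48 of the 64 counts of its class. Cacna2d1, an extracellular subunit that raises channel number at the membrane, had 0, 2, 5, 11, 10 and 7 counts (0, 58.0, 40.8, 181, 444 and 597 CPM). Cells 5 and 6 were high for Cacna2d1 and cell 3 low. Cacng4, a gamma subunit also known to bind AMPA receptors, had 2, 6, 10 and 5 counts in cells 2 to 5, and 6 of the 8 Cacng genes had none.

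The share of Hcn2 among Hcn counts also differed between neurons. Hcn2 had 3, 0, 38, 0, 1 and 1 counts (348, 0, 310, 0, 44.4 and 85.3 CPM). It led in cell 3 with 65.5% of Hcn counts (51.9% to 77.5%) and held 9.09% (0.230% to 41.3%) in cell 5, and these intervals do not overlap. Hcn2 was at least 6.29-fold higher in cell 3 than in cell 4, taking 3 counts as the floor in cell 4. Hcn2 holds the most Hcn counts only because of cell 3: without it the share fell from 45.3% to 13.5%. Hcn4 had 6, 4, 1 and 4 counts in cells 3 to 6, with its highest level in cell 6 (341 CPM).

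The calcium-activated potassium channels also differed in their parts. Kcnma1, the pore of the large-conductance BK channel, had 0, 8, 47, 4, 6 and 0 counts (0, 232, 384, 65.7, 266 and 0 CPM). Its beta subunits were Kcnmb3, with 10, 2 and 3 counts in cells 3, 5 and 6, Kcnmb4, with 1, 2 and 10 in cells 2, 3 and 4, and Kcnmb2 with 9 in all. In cell 3 Kcnma1 was 5.84 times the level of cell 4 (interval 2.14 to 22.3), and Kcnmb4 was 10.1 times higher in cell 4 than in cell 3 (2.14 to 94.4). The 2 deep libraries thus differed in opposite directions for the pore and this beta subunit. Of the small-conductance genes, Kcnn2 had 17 counts, Kcnn1 had 7, Kcnn3 had 1 and Kcnn4 none.

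The inward rectifier with the most counts was Kcnj2 with 6, spread over cells 1, 2, 3 and 5. Kcnj10, known from supporting and glial cells, had 1 count, and Kcnj16 none. Kcnk10, a leak channel of the TREK group, had 13 of the 16 K2P counts and was found in cells 2 to 5 at 29.0 to 73.4 CPM. NALCN, the sodium leak channel, had 1 count (Nalcn), its partner Unc79 had 11, all in cell 3, and Unc80 had none.

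Cells 3 and 4, the deepest libraries, allow the closest comparison of single members. Of 30 members with at least 10 counts in the pair, 10 (33.3%) were at least 2-fold higher in cell 3, against 24.5% of all 4326 such genes, and 3 at least 2-fold higher in cell 4, against 25.6% of all such genes. The median ratio of cell 3 to cell 4 was 1.56 for the members and 0.994 for all genes. This describes these libraries. Members at least 2-fold higher in cell 3 included Cacna1a (ratio 7.95, 2.03 to 68.5), Hcn2, Kcnma1, Kcnh4, Scn4b (3.48, 1.04 to 18.2), Kcna2 (2.65, 0.759 to 14.2), Kcnk10 (2.24, 0.463 to 21.3) and Kcnc4 (2.02, 1.32 to 3.21). The intervals of Kcna2 and Kcnk10 include 1. Higher in cell 4 were Kcnmb4, Cacna2d1 (4.43, 1.42 to 16.3) and Cacng4 (3.35, 1.10 to 11.2). Scn9a and Kcnh3 were close to level, with ratios of 0.858 (0.495 to 1.52) and 1.03 (0.527 to 2.11).

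**Figure D4:**
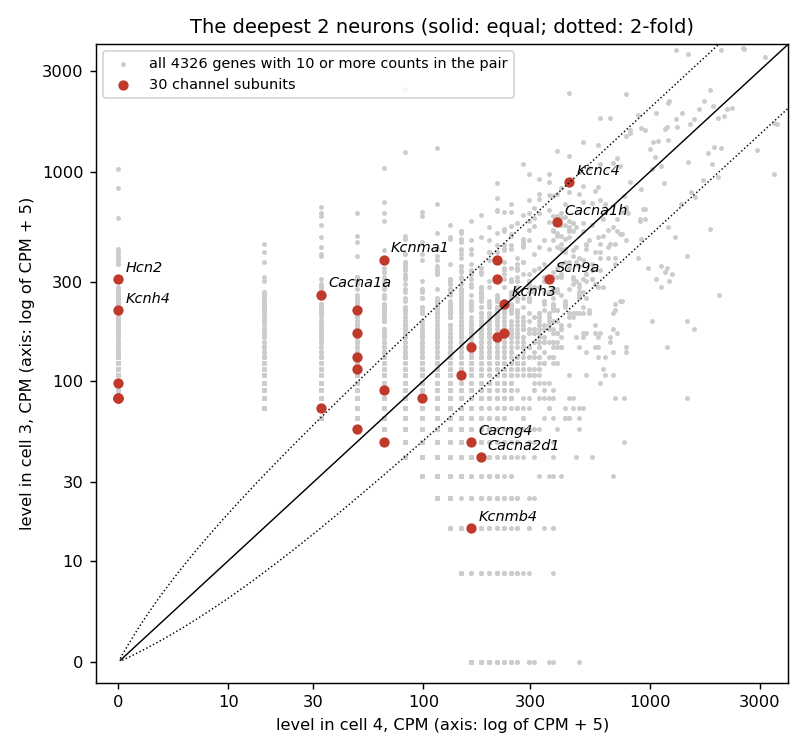
Level in cell 3 against level in cell 4, both in CPM on a log scale of CPM + 5, for 4326 genes with at least 10 counts in the pair (grey) and the 30 channel subunits among them (red). The solid line marks equal levels and the dotted lines 2-fold differences; Hcn2 and Kcnh4 sit at 0 in cell 4, and Kcnmb4 lies far to the side of cell 4.

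Mature neuron markers were also higher in cell 3 than in cell 4 (24089 and 13661 CPM), as were the transduction channels of the cilia (2065 and 443 CPM over Cnga2, Cnga4, Cngb1 and Ano2). Immature neuron markers (996 and 3038 CPM) and red blood cell markers (4080 and 12610 CPM) were higher in cell 4. Their part in the channel differences was not tested. The transduction channels had no count in cell 6, where Kcnh3 was at its highest level.

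Each cell was also set against the mean of the other 5, for members with at least 5 counts due in the cell at that mean. Of 70 such pairs of member and cell, 9 (12.9%) were at least 2-fold above the others, against 9.88% of all genes, and 25 (35.7%) were at or under 0.5 times the others, against 32.7%. These shares are close to the background, so the channels as a whole did not stand out for their unevenness. The mean weighs all cells equally, so single counts of shallow libraries weigh heavily in it. Against the pooled counts of the other cells, 7 pairs were above and 25 below. Of these, 6 and 17 were also called against the mean. The calls by cell that follow use the mean. In cell 3, 6 of 25 members (24.0%, against 12.2% of all genes) were at least 2-fold above, Cacna1h, Hcn2, Kcnh4, Kcnma1 and Scn8a among them. In cell 2, 8 of 14 were at or under 0.5 times (57.1%, against 34.9% of all genes), Kcnc4, Kcnh3, Cacna1h and Hcn2 among them, and cell 2 also had the highest gland markers. In cell 4, 10 of 22 were (45.5%, against 33.8% of all genes), Hcn2, Scn3a and Scn4b among them. No member was 2-fold above in cell 2 (3.02% of all genes). The remaining calls above 2-fold were 1 of 22 for cell 4 (Scn3b; 9.45% of all genes), 1 of 6 for cell 5 (Scn9a; 6.09%) and 1 of 2 for cell 6 (Kcnc4; 14.4%).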

How the data were processed

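The authors deposited a table of whole-number counts for 55341 gene symbols and 6 cells, without normalization. Per the submitters' processing notes, CASAVA, Bowtie2 2.3.4, HTSeq and the mouse build mm10 were used, without their roles. Per the labels, read 2 alone was aligned. The annotation, the strand setting and any collapsing of molecular identifiers: not given in the sources used here. Thus a gene and an overlapping antisense partner cannot be told apart. Of the 61 members with a count, 25 share exon sequence with another gene.

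All symbols matched GENCODE M21 (GRCm38), which gave positions and exon lengths. Promoter sequences are from RefSeq (GRCm38.p6). CPM, Poisson, Clopper-Pearson and conditional binomial ratio intervals were computed with Python 3.11.15, scipy 1.17.1 and pandas 2.3.3, and TMM factors with edgeR 4.0.16. Expected detection at equal depth is the exact hypergeometric value. A fold against a gene without counts uses 3 counts per library. The fold and interval calculations were tested on simulated Poisson counts, at higher counts than most members had and without amplified copies. Their error at low counts was thus not tested. Each library is 1 cell and all form 1 group, so no test between cells was made. Shares are given for families with at least 10 counts. CEL-Seq2 counts 3' ends, so levels are CPM, with CPM per kb of exon as the alternative order of genes.

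The members, gene lists and tests were chosen with earlier results of these data known. The rule for named genes took members with a count in all 6 cells, up to 4 per class with the highest mean CPM and at least 5 counts, the leading alpha subunit of each family, the 10 with at least 10 counts in 1 cell and the largest ratio of the highest to the next cell, those called at 2-fold, and members at 0 that describe a family. Other members with few counts are named to complete a family and were chosen after their values were seen. Protein sequences were planned and are not used here, and the choice of promoters to print came after the values were seen. Of the 11 marker lists, those of sustentacular cells, ensheathing glia, macrophages, vascular and muscle cells and ciliated cells had 23, 7, 2, 3 and 48 counts. The alternatives were detection at 3 counts, equal depth, 4 other scalings, other fold and count limits, pooled levels, members with overlapping exons left out, and cells left out. Some members enter the counts and sums but are not reported here by name. Promoter windows that overlap an exon of their own gene were left out for the printed sequences, CG pairs and GC boxes, but not for the other motifs. Ratios with TMM factors were added. Both changes were made after the values were seen.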

Additional observations from a re-analysis of the deposited data

Results flagged for a closer look

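Among 41 values examined across the 6 cells (class sums, the sum of all members, and members with a count in at least 4 cells), 5 had a cell whose distance from the next exceeded Dixon's limit at 95%. For values of even error, chance flags about 1 in 20 such groups. Here the counting error differs with depth, so that rate may not hold. Cell 6 gave 4 of them: Kcnh3 at 853 CPM (10 counts, against 237 CPM in the next highest cell, a ratio of 3.60 by totals and 1.58 with TMM factors), Hcn4 at 341 CPM (4 counts), Cacnb3 at 597 CPM (7 counts), and the calcium channel beta class at 597 CPM, which is Cacnb3 alone in that cell. Cell 1 gave the other, Cacna1b at 464 CPM (4 counts). Both cells are the shallowest libraries, where 1 count is worth 85.3 and 116 CPM.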

How the results depend on the processing

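No paired analysis was possible because all cells belong to 1 group and no test was made. Scaling moved levels by cell: with edgeR's TMM factors every level shifted by between -0.65 (cell 6) and 0.54 (cell 3) on the log2 scale, and orders between shallow and deep cells depend on it. With the 50 most abundant genes left out, the totals are smaller, which raises every CPM. The median summed level of all members was then 7245 CPM and that of sodium alpha subunits 1333 CPM. At the shallowest depth 39.7 members were due in any cell and 2.81 in all 6, and a minimum of 3 counts left 1 member, Kcnc4, in all cells. Without cells 1 and 6 together, 21 members had a count in every remaining cell. Leaving out each cell in turn gave shares of 56.0% to 75.0% for Kcna2, 46.5% to 64.0% for Kcnh3 and 13.5% to 50% for Hcn2, with cell 3 left out at the extreme for Kcna2 and Kcnh3 and the low one for Hcn2. The median over cells with at least 10 family counts was 47.2% for Scn9a and 9.09% for Hcn2. Without members that share exons with other genes, the share was 77.3% for Kcna2, 99.4% for Kcnc4 and 100% for Kcnk10. Calls above the other cells were 5 at a 3-fold limit and 36 with at least 1 count due, and calls below were 12 with at least 10 counts due and 65 with at least 1. Among alternative values for the main results, 221 stayed within the spread or 1.5 times the count, and the 18 given here moved. Apart from the smaller totals, the cause was not tested. With all windows, those in exons included, the median was 16, 10 and 6 CG pairs for members with at least 10, 1 to 9 and no counts.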
